A study of Mus musculus with 2 samples.

Results

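Ion channels of microglia were examined in scRNA-Seq libraries of sorted spinal microglia through 10 genes, chosen by symbol out of the 32285 genes counted. They were the potassium channel genes Kcnk13, Kcnk6, Kcnj2, Kcnn4 and Kcna3, the proton channel gene Hvcn1, the cation channel genes Trpv2 and Trpm7, and the anion channel genes Lrrc8a and Clic1. All 10 were present in both count tables, and the rule used their symbols alone.

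There was 1 library of each genotype, both from the spinal cord of male mice aged 8 to 10 weeks. Microglia were gated as CD45lo CD11B hi CX3CR1 hi after digestion with collagenase at 37 °C, and RNA was read from the 3′ end. Control mice, labelled WT, carried Eif4ebp1 fl/fl without Cre, and 4E-BP1–cKO mice carried Eif4ebp1 fl/fl:TMEM119CreERT2, so that the floxed alleles were shared by both groups and Cre was driven by the Tmem119 promoter of microglia. The methods give 4-hydroxytamoxifen (4-OHT) from postnatal day 4 to 9, and the sources used here do not give the number of mice behind each library. With 1 library per genotype there was no replicate check. All intervals below are 95% intervals that cover counting error only, and no p-value is given.

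Microglia hold their membrane potential mainly with potassium channels, and this potential sets the driving force for calcium entry and accompanies the movement and surveillance of their processes. Potassium efflux through such channels is also a known step ahead of NLRP3 inflammasome activation and interleukin-1β release. Proton and chloride channels balance charge during the oxidative burst and phagosome acidification, and volume-regulated anion channels let swollen cells release osmolytes.

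Barcodes needed over 300 genes and less than 5% of UMIs on mitochondrial genes. The control library then had 1147 cells (4803562 UMIs) and the 4E-BP1–cKO library 445 cells (1734332 UMIs). A UMI marks 1 captured RNA molecule, so that PCR copies are counted once. Median depth was 3053 UMIs per control cell and 2776 UMIs per 4E-BP1–cKO cell, and the libraries shared 0 cell barcodes. The targeted gene Eif4ebp1 had 95 control and 51 4E-BP1–cKO UMIs, or 19.8 and 29.4 counts per 1000000 UMIs (CPM). Its cKO-to-control ratio of 1.49 (1.04 to 2.11) was not below 1, but 3′ counts outside the deleted exon do not check the deletion. At least 3 of 10 microglia markers were detected in 95.2% of control and 92.4% of 4E-BP1–cKO cells. At least 3 markers of some other cell type were found in 13 control and 3 4E-BP1–cKO cells, too few to compare these channels between cell types.

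The levels of the channel genes fell into 3 tiers that were the same in both libraries. Trpm7, Kcnk13 and Clic1 lay between 220.3 and 334 CPM. Hvcn1, Kcnk6, Kcnj2, Trpv2 and Lrrc8a lay between 36.8 and 73.2 CPM. Kcnn4 and Kcna3 lay between 2.29 and 2.91 CPM. These are levels in UMIs at the 3′ end, and they were compared without division by length. Whether introns were counted is not stated in the sources used here. An effect of gene length on these levels was not tested.

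**Figure D1:**
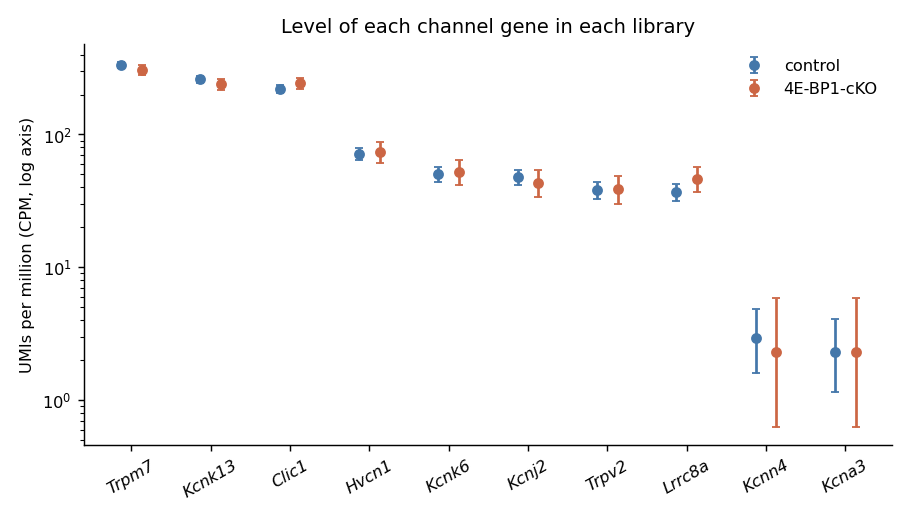
Level of each channel gene in CPM (log axis) in the control (blue) and 4E-BP1–cKO (orange) libraries, with exact 95% Poisson intervals of the UMI count as bars. The upper tier reaches from 220.3 to 334 CPM, and Kcnn4 and Kcna3 lie under 3 CPM in both libraries.

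Promoters of the upper tier are shown because these 3 genes had the most UMIs and differed in opposite directions between the cell states described further on. The sequences are RefSeq windows from 250 bases before to 50 bases after a listed transcription start in GRCm38.p6, the assembly of mm10. Capitals mark matches to the motifs searched. Those of Kcnk13 (chr12:99964249-99964548, plus strand), Trpm7 (chr2:126876212-126876511, minus strand) and Clic1 (chr17:35049993-35050292, plus strand) read as follows.
Kcnk13: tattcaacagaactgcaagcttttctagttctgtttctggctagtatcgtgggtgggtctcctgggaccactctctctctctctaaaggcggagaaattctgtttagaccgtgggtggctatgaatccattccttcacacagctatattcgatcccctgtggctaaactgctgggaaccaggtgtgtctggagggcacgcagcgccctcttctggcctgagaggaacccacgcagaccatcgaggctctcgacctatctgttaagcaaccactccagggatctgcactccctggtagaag
Trpm7: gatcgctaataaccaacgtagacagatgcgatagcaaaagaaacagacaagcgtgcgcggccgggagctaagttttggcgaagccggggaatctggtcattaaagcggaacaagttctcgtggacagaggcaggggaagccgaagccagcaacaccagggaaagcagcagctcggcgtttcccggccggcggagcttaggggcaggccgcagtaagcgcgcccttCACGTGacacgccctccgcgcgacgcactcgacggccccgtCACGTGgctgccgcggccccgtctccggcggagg
Clic1: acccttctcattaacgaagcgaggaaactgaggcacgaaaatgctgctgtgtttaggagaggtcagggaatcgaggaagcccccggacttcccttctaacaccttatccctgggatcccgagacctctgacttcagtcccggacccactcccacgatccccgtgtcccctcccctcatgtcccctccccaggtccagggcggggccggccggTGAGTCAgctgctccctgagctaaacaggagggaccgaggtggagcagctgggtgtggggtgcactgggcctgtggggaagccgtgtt
Both strands were searched for 4 motifs, none of which holds another. The word of the E-box bound by MITF and TFE3, CACGTG, stood at 2 places of the Trpm7 window, and 7.15% of 32851 mouse promoter windows hold it. Windows of Kcnj2, Kcnn4 and Lrrc8a held it at 1 place each. The word searched for AP-1 was TGACTCA. Its reverse complement stood in the Clic1 window, and 5.20% of all windows hold it on either strand. The Kcnk13 window held none of the 4 motifs. It lies inside the span of the gene, which starts at base 99963149, and the sequence at that start was not searched. The window had 9 CpG dinucleotides and 52.7% GC, against 35 CpG and 63.7% GC at Trpm7 and 14 CpG and 62.0% GC at Clic1. The word searched for PU.1, GAGGAAGT, was present in windows of Trpv2 alone among the members and in 3.20% of all windows. For the TATA box, TATAAA was searched, which was likewise found among the members at Trpv2 alone and in 13.6% of all windows. Windows were at hand for 8 of the 10 genes, all but Kcnk6 and Hvcn1.

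Kcnk13 (ENSMUSG00000045404, chr12:99963149-100062682 in GRCm38) encodes THIK-1, a tandem pore-domain channel that passes the tonic potassium current of resting microglia. It had 1250 UMIs in the control library, a level of 260.2 CPM (246 to 275), and 413 UMIs in the 4E-BP1–cKO library, a level of 238 CPM (216 to 262). At least 1 UMI was present in 528 of 1147 control cells (46.0%) and 184 of 445 4E-BP1–cKO cells (41.3%). Up to 19 UMIs stood in 1 control cell and 16 in 1 4E-BP1–cKO cell. It ranked 759 of 19703 genes with a UMI in control cells and 810 of 16181 in 4E-BP1–cKO cells. Its span overlaps that of the long noncoding RNA gene Gm51957 by 18434 bases, and that gene was not among those counted.

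Kcnk6 (chr7:29221928-29232522), another tandem pore-domain channel gene, encodes TWIK2, a route of potassium efflux in macrophages. It stood at 50.0 CPM (43.8 to 56.7) in the control and 51.9 CPM (41.7 to 63.8) in the 4E-BP1–cKO library, in 16.7% and 15.7% of cells. No cell held more than 3 UMIs. Kcnj2 (chr11:111066164-111076825) encodes an inward rectifier that keeps the resting potential negative. Its levels were 47.7 CPM (41.7 to 54.3) and 43.2 CPM (34.0 to 54.2), with a UMI in 13.9% and 12.8% of cells.

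Kcnn4 and Kcna3, which encode a calcium-activated channel and a voltage-gated channel known from activated microglia and T cells, were rare in both libraries. Kcnn4 (chr7:24369826-24385212) had 14 UMIs in 13 control cells and 4 UMIs in 4 4E-BP1–cKO cells. Kcna3 (chr3:107036162-107038129) had 11 UMIs in 10 control cells and 4 UMIs in 4 4E-BP1–cKO cells. These shares, 1.13% and 0.899% for Kcnn4 and 0.872% and 0.899% for Kcna3, lay below those of Kcnj10, a potassium channel gene of astrocytes and oligodendrocytes, with 1.83% and 1.35%, and above those of the neuronal channel gene Kcnc1, with 0.174% and 0.225%. Free RNA was not estimated, so that rare expression and background cannot be told apart for Kcnn4 and Kcna3. Astrocyte markers reached 3 in 0 cells of either library.

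Hvcn1 (chr5:122206805-122242297) encodes the voltage-gated proton channel that compensates charge for the phagocyte NADPH oxidase. It led the middle tier in both libraries, at 71.0 CPM (63.7 to 78.9) in the control and 73.2 CPM (61.0 to 87.1) in the 4E-BP1–cKO library, with a UMI in 22.1% and 19.6% of cells. Its span overlaps Tctn1 by 2803 bases, and Tctn1 had 34 UMIs over both libraries against 468 for Hvcn1.

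Trpm7 (chr2:126791558-126876261), a magnesium- and calcium-permeable channel fused to a kinase, was the most abundant member. It had 1602 UMIs in the control library, 334 CPM (317 to 350.2), and 528 UMIs in the 4E-BP1–cKO library, 304 CPM (279 to 332). A UMI was present in 53.4% of control and 53.9% of 4E-BP1–cKO cells. Trpv2 (chr11:62574486-62600305), a cation channel of phagocytes, stood at 38.1 CPM (32.8 to 44.0) and 38.6 CPM (29.9 to 49.1) and was detected in 149 control and 58 4E-BP1–cKO cells.

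Clic1 (chr17:35050243-35058719), a redox-sensitive protein that exists in soluble and membrane forms, had 1058 UMIs in the control library, 220.3 CPM (207 to 234), and 422 UMIs in the 4E-BP1–cKO library, 243 CPM (221 to 268). It was detected in 39.7% of control and 44.7% of 4E-BP1–cKO cells. Lrrc8a (chr2:30237769-30263790), the obligatory subunit of the volume-regulated anion channel, stood at 36.8 CPM (31.6 to 42.7) and 46.1 CPM (36.6 to 57.4), in 12.1% and 15.5% of cells.

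The order of levels was clear of counting error in only some steps. Of the neighbors in the control order, Kcnk6 and Kcnj2 (ratio 1.05, 0.871 to 1.26), Trpv2 and Lrrc8a (1.03, 0.836 to 1.28) and Kcnn4 and Kcna3 (1.27, 0.537 to 3.10) could not be told apart. In the 4E-BP1–cKO library Clic1 stood ahead of Kcnk13 by a ratio of 1.02 (0.890 to 1.17), within counting error, whereas Kcnk13 exceeded Clic1 by 1.18 (1.09 to 1.28) in the control library. Kcnk6, Lrrc8a, Kcnj2 and Trpv2 followed each other there with ratios of 1.07 to 1.12, whose intervals all included 1.

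The share of cells with a UMI was compared with the share that would result if every cell of a library held the gene at the same CPM. For Kcnk13 the equal level gives 56.1% of control and 50.3% of 4E-BP1–cKO cells, and the measured shares were 0.821 and 0.822 of these. The corresponding values were 63.1% and 56.9% for Trpm7 and 51.4% and 50.9% for Clic1, all above the measured shares. For Kcnk13 and Clic1 the equal-level share lay above the interval of the measured share in both libraries, and for Trpm7 and Kcnj2 it did so in the control library. The share of all genes that do so is not given, so this is not shown to be particular to these genes. The 5 genes of the middle tier ranged from 0.812 of the equal level for Kcnj2 in the control library upward, and for Lrrc8a in the 4E-BP1–cKO library the measured and the equal-level share were both 15.5%. When each cell was thinned to 872 UMIs, a depth that 1058 control and 375 4E-BP1–cKO cells reached, Kcnk13 was detected in 19.2% (16.9 to 21.7) and 16.5% (12.9 to 20.7), Trpm7 in 24.5% and 23.2%, and Clic1 in 13.5% and 16.0% of cells. The median cell held a UMI of 2 of the 10 genes in both libraries. None of the 10 was detected in 14.0% of control and 16.4% of 4E-BP1–cKO cells, and 5 or more were detected in 9.24% and 10.3%.

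**Figure D2:**
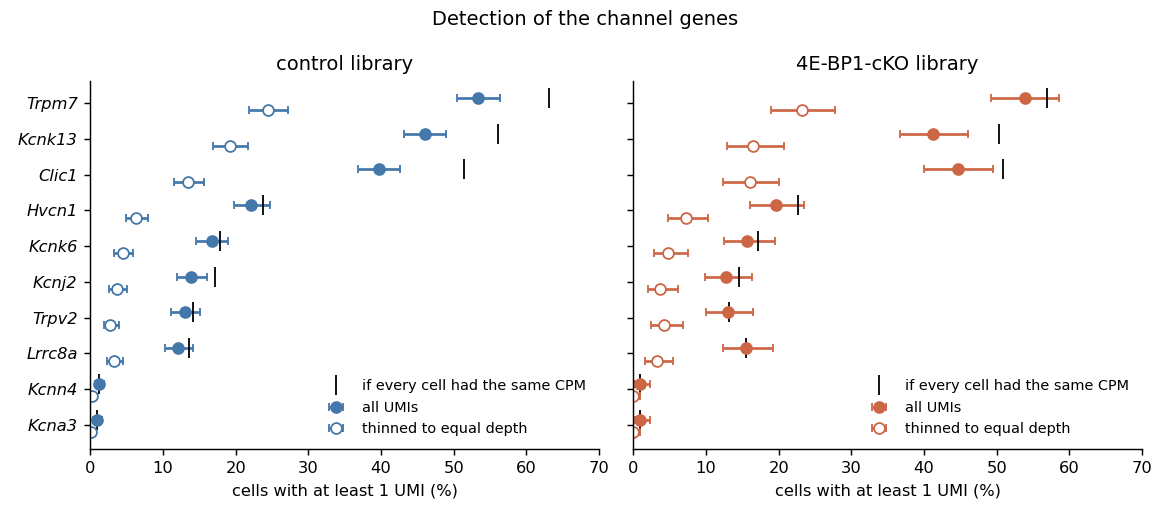
Percent of cells with at least 1 UMI of each channel gene in the control (left) and 4E-BP1–cKO (right) libraries, from all UMIs (filled circles) and after thinning every cell to 872 UMIs (open circles), with exact binomial 95% intervals. Black bars give the percent if every cell had the library's CPM, and for Kcnk13 and Clic1 they lie above the measured interval in both libraries. The share of all genes for which this holds is not given.

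The first comparison asked whether channel transcripts differed between 4E-BP1–cKO and control microglia. All 8 genes with at least 20 UMIs lay within 1.5-fold of the control level, and 0 were past it, where 18.8% of the 11784 genes with that many UMIs were past 1.5-fold (5.34% higher and 13.5% lower). Low counts widen these ratios. Past 1.5-fold were 4.75% of the genes with at least 200 UMIs, a number that all 8 genes reached, and 28.8% of those with fewer. The cKO-to-control ratio was 0.915 (0.817 to 1.02) for Kcnk13, 1.04 (0.806 to 1.33) for Kcnk6 and 0.907 (0.689 to 1.18) for Kcnj2. It was 1.03 (0.835 to 1.27) for Hvcn1, 1.01 (0.755 to 1.35) for Trpv2 and 0.913 (0.826 to 1.01) for Trpm7. The highest ratios were 1.25 (0.949 to 1.64) for Lrrc8a and 1.10 (0.985 to 1.24) for Clic1. The intervals of all 8 included 1, and those of Kcnk13, Kcnk6, Kcnj2, Hvcn1, Trpv2, Trpm7 and Clic1 did not reach 1.5.

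The median log2 ratio was 0.03 over these 8 genes and −0.06 over all genes tested. The intervals of Kcnn4, at a ratio of 0.791 (0.190 to 2.52), and Kcna3, at 1.01 (0.234 to 3.40), were too wide to show a difference at this depth. Ribosome-poor cells, which are described next, made up different shares of the libraries, so the ratio was also taken within each state. Among ribosome-poor cells the log2 ratio was −0.00 for Kcnk13, −0.21 for Trpm7 and 0.04 for Clic1, and among the other cells it was −0.16, 0.02 and 0.07. For Hvcn1 it was 0.45 among ribosome-poor cells, outside the interval over all cells, and −0.18 among the others. Kcnj2 had 0.12 and −0.29, Kcnk6 0.23 and −0.05, Trpv2 0.31 and −0.14, and Lrrc8a 0.31 and 0.41. None of the 8 genes was past 1.5-fold in either state.

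**Figure D3:**
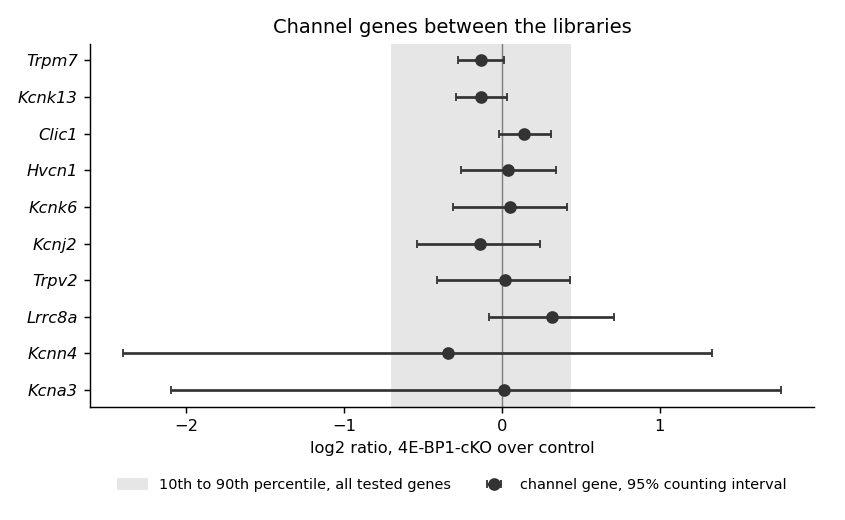
Log2 ratio of CPM, 4E-BP1–cKO over control, for each channel gene with its exact 95% counting interval. The gray band reaches from the 10th to the 90th percentile of all 11784 tested genes, −0.70 to 0.43, and all 10 points lie inside it.

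Cells were then compared by state within each library, with measures that use no channel gene. Ribosome-poor cells, with under 3% of UMIs on 84 ribosomal protein genes, numbered 657 (57.3%) in the control and 212 (47.6%) in the 4E-BP1–cKO library. They were shallower, with a median of 2354 UMIs against 5512 in the other control cells and 1972 against 4716 in the other 4E-BP1–cKO cells. The nuclear RNA Malat1 took 46786 against 27444 CPM in the control library and 46999 against 31781 CPM in the 4E-BP1–cKO library. The 3% limit was known from earlier results of these data.

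Clic1 was about 3 times lower in ribosome-poor cells of both libraries. In control cells its level was 98.1 CPM (84.4 to 113) in ribosome-poor and 298 CPM (278 to 318) in the other cells, a ratio of 0.329 (0.279 to 0.387). In 4E-BP1–cKO cells the levels were 101 CPM (76.4 to 131) and 312 CPM (281 to 346), a ratio of 0.323 (0.240 to 0.428). It was the 1 member lower by more than 1.5-fold in both libraries, as were 16.3% of 8015 genes with at least 20 UMIs in each. Over quintiles of cells ordered by ribosomal share, its level climbed from 65.6 to 86.9, 155, 271 and 332 CPM in the control library. The 4E-BP1–cKO quintiles read 65.1, 93.1, 236, 313 and 331 CPM, so that the lowest and the highest quintile were nearly the same in both libraries.

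Kcnk13 and Trpm7 went the other way. Kcnk13 stood at 321 CPM (295 to 347) in ribosome-poor and 222 CPM (205 to 239.6) in the other control cells, a ratio of 1.44 (1.29 to 1.62). In the 4E-BP1–cKO library it stood at 320.4 and 198 CPM, a ratio of 1.62 (1.32 to 1.97). Trpm7 stood at 444 and 263 CPM in the control library, a ratio of 1.69 (1.53 to 1.87), and at 384 and 266 CPM in the 4E-BP1–cKO library, a ratio of 1.44 (1.21 to 1.72). Intervals of both genes lay above 1 in both libraries, but neither gene was past 1.5-fold in both, as 11.8% of the 8015 genes were. Their order to Clic1 changed with the state, since Clic1 was the lowest of the 3 in ribosome-poor cells and the highest in the others in both libraries.

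Lrrc8a was 1.56 (1.15 to 2.12) and 1.45 (0.902 to 2.32) times its level in the other cells, and the log2 ratio of Trpv2 was 0.03 and 0.48, with intervals that included 0. Kcnk6, Kcnj2 and Hvcn1 had ratios below 1 in the control library (0.896, 0.830 and 0.812) and above 1 in the 4E-BP1–cKO library (1.09, 1.10 and 1.26), and all 6 intervals included 1. The median log2 ratio of the 8 genes was −0.06 in the control and 0.41 in the 4E-BP1–cKO library, beside 0.11 and 0.10 for all genes tested. Without ribosomal protein and mitochondrial genes in the total, the medians of all genes were 0.02 and −0.00.

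The length of the gene moved with this state across all genes. Of the genes tested 96.8% had a span in the annotation, and in the shortest quintile (0.394 to 9.70 kb) the median log2 ratio of ribosome-poor to other cells was −0.76 in the control and −0.82 in the 4E-BP1–cKO library. In the longest quintile (79.5 to 1612 kb) it was 0.52 and 0.66. Clic1, with a span of 8.48 kb, lay in the shortest quintile, of whose genes 48.4% were lower by more than 1.5-fold in both libraries, and its log2 ratios of −1.60 and −1.63 were below that quintile's medians. Trpm7 (84.7 kb) and Kcnk13 (99.5 kb) lay in the longest quintile, with log2 ratios of 0.76 and 0.53 for Trpm7 and 0.53 and 0.69 for Kcnk13. Lrrc8a, Hvcn1 and Trpv2 lay in a quintile (21.3 to 38.5 kb) with medians of 0.06 and 0.05. There Lrrc8a had log2 ratios of 0.64 (0.20 to 1.08) and 0.54 (−0.15 to 1.21). Those of Hvcn1 were −0.30 (−0.64 to 0.03) and 0.33, and those of Trpv2 0.03 and 0.48. Depth moved with some of the members too. Between the top and the bottom tertile of cells by UMIs, the ratio was 2.62 (1.98 to 3.54) in the control and 1.91 (1.23 to 3.14) in the 4E-BP1–cKO library for Clic1, 0.682 and 0.695 for Kcnk13, and 0.656 and 0.671 for Trpm7. In the control library it was also clear of 1 for Kcnj2, at 2.13 (1.21 to 4.09), and Lrrc8a, at 0.538 (0.359 to 0.827). In the 4E-BP1–cKO library these ratios were 1.06 (0.452 to 3.01) and 0.808 (0.380 to 1.97). The median ribosomal share of these tertiles was 5.22% and 1.87% in the control and 6.29% and 1.81% in the 4E-BP1–cKO library. Ribosomal share, gene length and depth were not separated, and the part of each was not tested.

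**Figure D4:**
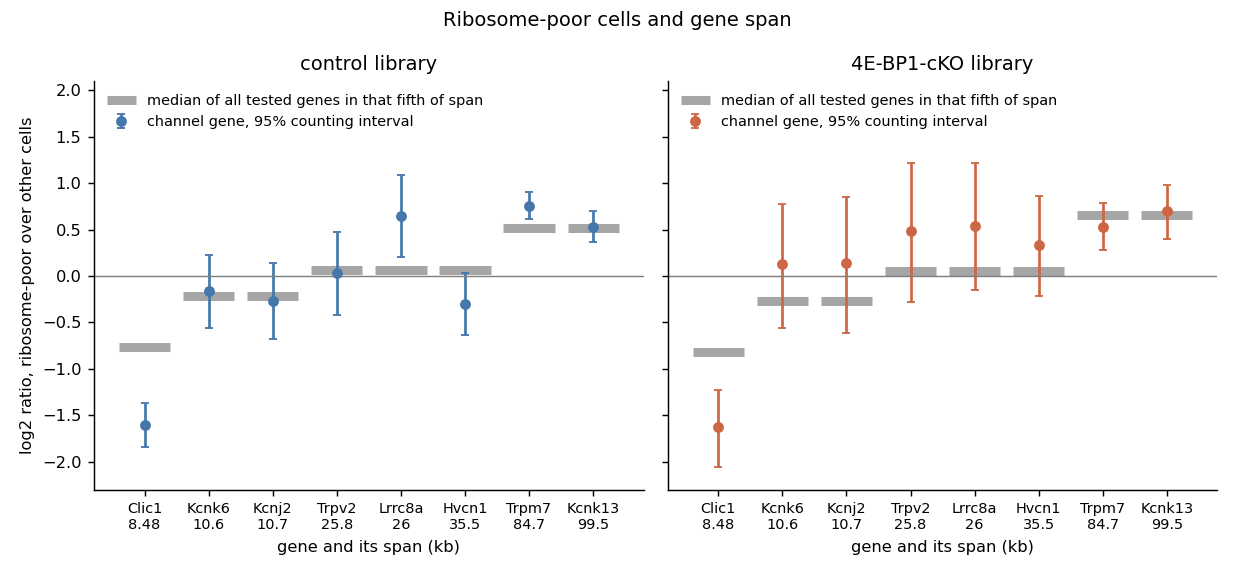
Log2 ratio of CPM, ribosome-poor over other cells, in the control (left) and 4E-BP1–cKO (right) libraries for the 8 channel genes with at least 20 UMIs in each, ordered by gene span in kb, with exact 95% counting intervals. Gray bars are the medians of all tested genes in the same quintile of span. The interval of Clic1 lies below its bar in both libraries, and that of Kcnk13 includes its bar in both. In the control library the intervals of Trpm7 and Lrrc8a lie above their bars and that of Hvcn1 just below. In the 4E-BP1–cKO library the intervals of Trpm7, Lrrc8a and Hvcn1 include their bars.

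Early-response genes were used as a measure of cell state, as the share of a cell's UMIs on 22 genes such as Fos, Jun, Egr1, Atf3, Ccl3 and Ccl4. Whether they were induced during digestion or in the animal was not tested. Kcnk13 was lower where this share was higher. From the bottom to the middle and the top tertile of cells its level was 329, 274 and 201 CPM in the control and 308, 269 and 173 CPM in the 4E-BP1–cKO library. The ratio of top to bottom tertile was 0.612 (0.532 to 0.703) and 0.561 (0.435 to 0.722), and it was the 1 member lower by more than 1.5-fold in both libraries, as were 9.42% of the 8015 genes. No member was higher by that much in both, as 5.34% of genes were. Cells of the top tertile had a higher ribosomal share, at a median of 5.07% against 1.53% in the control and 6.53% against 1.65% in the 4E-BP1–cKO library, so tertiles were also taken within each ribosomal state. Among ribosome-poor cells the log2 ratio of Kcnk13 was −1.06 in the control and −1.11 in the 4E-BP1–cKO library. Among the other cells it was −0.18 and −0.96, so that the difference was not past 1.5-fold in control cells there.

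Among the other members, the ratio for Trpm7 was 0.959 (0.846 to 1.09) in the control and 0.815 (0.656 to 1.01) in the 4E-BP1–cKO library, and Clic1 stood at 243 against 218 CPM in the control and 293 against 195 CPM in the 4E-BP1–cKO library, with ratio intervals of 0.962 to 1.30 and 1.16 to 1.96. For Clic1 this direction did not hold within the ribosomal states, with log2 ratios of −0.57 in the control and −0.34 in the 4E-BP1–cKO library among ribosome-poor cells and of −0.31 and 0.10 among the other cells. Trpm7 was higher in both states in the control library, with log2 ratios of 0.31 among ribosome-poor and 0.55 among the other cells. In the 4E-BP1–cKO library these were −0.25 and 0.12. Kcnk6 lay past 1.5-fold in opposite directions in the states. Its log2 ratios were 0.68 and 1.13 among ribosome-poor cells and −0.72 and −0.76 among the other cells. All ribosome-poor cells together held 87 control and 31 4E-BP1–cKO UMIs of Kcnk6, and the other cells held 153 and 59. No interval or share of all genes is given for tertiles within a state, so counting error was not excluded. Hvcn1 had ratios of 1.02 and 1.20, Kcnk6 of 0.872 and 0.881, Lrrc8a of 0.874 and 0.897, and Trpv2 of 0.920 and 0.561. Kcnj2 stood at 52.3 CPM in both control tertiles and had a ratio of 0.808 in the 4E-BP1–cKO library. The intervals of these 5 genes all included 1.

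Clusters were formed without the 10 genes and without 192 further channel genes, which gave 9 clusters numbered by size, 7 of them with at least 20 cells of each library. They were given no cell type names. Kcnk13 was highest in cluster 2, led by Bicdl2, Slc24a1 and Raver2, with 461 CPM in the control and 467 CPM in the 4E-BP1–cKO library. It was lowest of the 7 in cluster 3, led by Med30, Enkur and Fos, with 164 and 149 CPM. The ratio between these clusters was 2.82 (2.28 to 3.48) in the control and 3.12 (2.18 to 4.48) in the 4E-BP1–cKO library. The median share of early-response genes was 1.84% and 2.82% in cluster 2 and 4.76% and 5.30% in cluster 3, and the median ribosomal share was 1.35% and 1.10% against 6.38% and 6.93%. Over the other clusters Kcnk13 did not simply follow the early-response share. Cluster 6 had shares of 3.76% and 4.53% with 319.5 and 243 CPM of Kcnk13. Cluster 5 had shares of 1.98% and 1.54% with 200.4 and 199.8 CPM. Cluster 1, led by Gm35188, Gm43221 and Gm10135, was also above the remaining cells of its library for Kcnk13, by 1.31 (1.13 to 1.52) and 1.49 (1.09 to 1.99).

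Trpm7 was highest of the 7 in cluster 8, led by Wdr95, Bag3 and 1700001K19Rik, with 646 CPM in the control and 423 CPM in the 4E-BP1–cKO library. The 4E-BP1–cKO value could not be told apart from 420.0 CPM (309.7 to 557) in cluster 4 and 412 CPM (316 to 527) in cluster 1. Of the 7 clusters it was lowest in cluster 6, led by Cxcl2, Mt2 and Gclm, with 206 and 215 CPM. In that cluster, whose cells had the deepest counts at medians of 8908 and 7713 UMIs, Kcnk13 was not low, at 319.5 CPM in the control and 243 CPM in the 4E-BP1–cKO library. Cluster 8 was the lowest of the 7 for Clic1, with 60.2 and 65.6 CPM. Cluster 7, left out of these for its 19 4E-BP1–cKO cells, had 56.8 CPM (33.7 to 89.7) of Clic1 in the control library. In the 4E-BP1–cKO library it had 159 CPM (68.5 to 313). The highest levels of Clic1 among the 7 were 304 CPM in control cells of cluster 6 and 338 CPM in 4E-BP1–cKO cells of cluster 5, led by Gm5420, Slc35a1 and Gm3173. In the small cluster 9, led by Gm1673, Apoe and Pole3 and with 27 control and 18 4E-BP1–cKO cells, Clic1 reached 374 CPM (287 to 478) and 491 CPM (361 to 653). This cluster had the highest ribosomal share, at medians of 18.4% and 18.2%, and the lowest control level of Kcnk13, at 113 CPM (67.9 to 176).

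For the middle tier, fewer clusters had an interval against the remaining cells that was clear of 1 in both libraries. These genes also had fewer UMIs, so this does not show that their levels were steadier. Over the 7 clusters, the ratio of highest to lowest was 3.01 in control and 3.62 in 4E-BP1–cKO cells for Kcnk6. It was 2.01 and 3.29 for Hvcn1. Their intervals lay above 1, but the clusters involved differed between the libraries. Kcnj2 and Trpv2 had such intervals in the control library only, and Lrrc8a in neither. Hvcn1 was above the remaining cells in cluster 3 in both libraries, with ratios of 1.36 (1.06 to 1.74) and 1.62 (1.10 to 2.36). Lrrc8a was above them in cluster 7, led by P4htm, Mroh3 and Eldr, with ratios of 2.66 (1.71 to 4.00) and 3.20 (1.24 to 6.94), the latter from 7 UMIs in 19 cells. For Kcnk6, Kcnj2 and Trpv2 no cluster had an interval away from 1 in the same direction in both libraries.

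**Figure D5:**
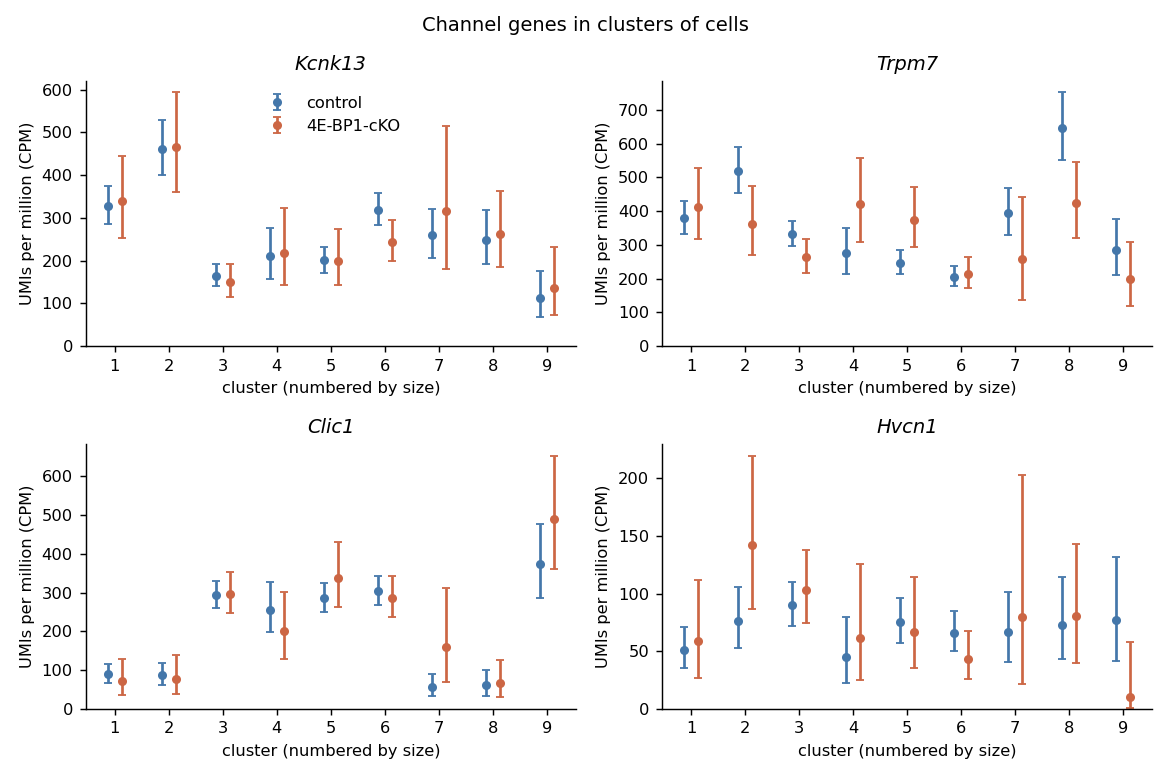
CPM of Kcnk13, Trpm7, Clic1 and Hvcn1 in each of 9 clusters, numbered by size, in the control (blue) and 4E-BP1–cKO (orange) libraries, with exact 95% Poisson intervals. Kcnk13 peaks in cluster 2 (461 and 467 CPM), Trpm7 in cluster 8 in the control library (646 CPM) while its 4E-BP1–cKO values in clusters 1, 4 and 8 lie close together, and Clic1 is low in clusters 1, 2 and 8 in both libraries.

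Genes with the most similar profile were sought among 4887 genes with at least 200 UMIs, by Pearson's r of log2(CPM + 10) over the 7 clusters in each library, and ranked by the smaller of both values. The values are the highest among 4887 genes over only 7 clusters, which also differ in depth and ribosomal share, so they are a description. For Kcnk13 the most similar genes were 1600010M07Rik (r = 0.92 in the control and 0.97 in the 4E-BP1–cKO library) and Itpkb (0.90 and 0.91), an inositol trisphosphate kinase gene. For Trpm7 they were Btaf1 (0.90 and 0.90) and Nktr (0.89 and 0.90). For Clic1 they were the cathepsin gene Ctss (0.99 and 0.99) and Tma7 (0.97 and 0.99). Values were lower for the middle tier, where counts per cluster were small. The first place went to Ppfibp2 for Kcnk6 (0.91 and 0.84), Taf13 for Kcnj2 (0.79 and 0.80), A930007I19Rik for Hvcn1 (0.85 and 0.72), Ireb2 for Trpv2 (0.82 and 0.79) and Pde4dip for Lrrc8a (0.82 and 0.94). The second went to Sgk3 (0.72 and 0.73), Scfd1 (0.88 and 0.76), Vps37b (0.71 and 0.70), Tlr7 (0.80 and 0.78) and Sh3bp5 (0.78 and 0.90), in the same order.

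The members were set beside 192 other channel genes from a list fixed by symbol, which covered potassium, TRP and endolysosomal, calcium, chloride and volume, and other channels. Of these, 130 had fewer than 20 UMIs over both libraries, among them 45 with no UMI in either. The 8 with the most UMIs were Clic4, Itpr2, Kcnma1, Cacna1d, Lrrc8d, P2rx7, Orai1 and Piezo1. Clic4, a relative of Clic1, had levels of 363 and 484 CPM and a cKO-to-control ratio of 1.34 (1.23 to 1.45). Its level exceeded that of Clic1 in both libraries. The ratio was 0.779 (0.679 to 0.891) for P2rx7, an ATP-gated channel that opens ahead of potassium efflux, with levels of 204 and 159 CPM. Kcnma1, a calcium- and voltage-activated potassium channel gene, stood at 327 and 322 CPM, above Kcnk13, with a ratio of 0.984 (0.892 to 1.08). Itpr2 had a ratio of 0.905 (0.819 to 0.999), Cacna1d of 0.935 (0.838 to 1.04), Lrrc8d of 0.893, Orai1 of 1.10 (0.949 to 1.28) and Piezo1 of 1.06 (0.898 to 1.24). The sources used here do not say whether introns were counted, and several of these genes are long, up to 713 kb for Kcnma1.

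Of the 62 other channel genes with at least 20 UMIs, 2 were higher and 12 lower by more than 1.5-fold in the 4E-BP1–cKO library, together 22.6% against 18.8% of all genes, with a median log2 ratio of −0.16. Among the 18 potassium channel genes of these the share was 44.4% (2 higher and 6 lower), but only 2 of the 18 had at least 200 UMIs, and of all genes with at least 20 but under 200 UMIs 28.8% were past 1.5-fold. In ribosome-poor cells, 10 of the 37 with at least 20 UMIs in each library (27.0%) were higher by that much in both, against 11.8% of all genes, and 0 were lower, against 16.3%. These 37 genes had a median span of 58.8 kb, against 28.2 kb for all genes. With the early-response share 1 was higher and 4 were lower, where 5.34% and 9.42% of all genes were. Some channel genes listed as known mainly from neurons or astrocytes were also counted, and these do not stand for all such genes. Kcnj10 had 24 UMIs in the control and 6 in the 4E-BP1–cKO library, Kcnc1 had 2 and 1, and Kcna1 and Scn2a had 1 and 0 each. Kcna2 and Scn1a had none, which at 3 counts allows up to 0.625 CPM in the control and 1.73 CPM in the 4E-BP1–cKO library.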

How the data were processed

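Spinal microglia were profiled by scRNA-Seq in 2 libraries, 1 of each genotype. The authors deposited UMI counts per gene and barcode, without normalization, from mm10 alignments by Cell Ranger count 8.0.1, as the headers state. For the annotation release and the intron setting, the sources used here give nothing. Barcodes were those called as cells, 1216 control and 474 4E-BP1–cKO barcodes. Of these, 65 and 25 reached the mitochondrial limit, 6 and 6 had too few genes, and 2 and 2 among them failed both. The limits were the study's. It also removed doublets with scDblFinder, which was not run here. Scrublet in scanpy 1.11.5 called 4 control and 11 4E-BP1–cKO cells, and they were kept except in an alternative. Empty droplets were not analysed here, so free RNA was not estimated.

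The 10 channel genes, the list of other channels, the state measures and their limits were chosen with earlier results of these data known. UMIs were summed over the kept cells of a library, state or cluster and divided by the total (CPM). Intervals were exact Poisson for levels, exact conditional for ratios and Clopper-Pearson for shares. A gene was counted as different when past 1.5-fold (in both libraries for states), with at least 20 UMIs. Clusters came from SCTransform (sctransform 0.4.2), RPCA integration, 20 principal components and a resolution of 1.4 in Seurat 5.3.0 under R 4.3.3. Other steps used Python 3.11.15, numpy 2.4.6, scipy 1.17.1 and pandas 2.3.3. The ratio step was tested on counts simulated with Poisson error alone, so unevenness between cells was not part of that test. Thinning was checked on the control cells for the depth it left. Gene spans and promoters were RefSeq's for GRCm38.p6, and overlaps between genes were taken from the same annotation, which gives no strand for them. Apart from the 10 genes, the text names Eif4ebp1, Malat1, the 8 other channels with the most UMIs, channels of neurons or astrocytes (from a list of 8, of which some are not reported here), the 2 genes most alike to each member and the 3 leading genes of each cluster. Kcnk7, Kcnk12 and the channels named with them were chosen after their values were seen. Alternatives were TMM factors (edgeR 4.0.16), another total, a mitochondrial limit of 10%, at least 500 genes, doublet removal, thinning, cells of other types left out, each ribosomal state alone, other ribosomal limits, tertiles within a state and other clusterings.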

Additional observations from a re-analysis of the deposited data

How the results depend on the processing

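The median log2 cKO-to-control ratio of the 8 channel genes lay between −0.09 and 0.18 over the alternatives. The number past 1.5-fold was 0 in each of them except 1 when every cell was thinned (Trpv2, with a log2 ratio of 0.63), where Trpv2 rested on 31 control and 17 4E-BP1–cKO UMIs. Thinning also moved Trpm7, from a log2 ratio of −0.13 (−0.28 to 0.01) to −0.44, with 376 control and 98 4E-BP1–cKO UMIs. No interval is given for the thinned Trpm7 ratio, so counting error was not excluded. Thinning changes the weight of deep cells and also drops those under 872 UMIs. These were not separated, and the reason for the shift of Trpm7 was not tested. In ribosome-poor cells the number higher by more than 1.5-fold in both libraries was 1 with the 2% limit (Kcnk13) and 2 with each library's median share as the limit (Kcnk13 and Trpm7), against 0 at 3%. Clic1 was the 1 gene lower under all 4 alternatives, with log2 ratios from −1.89 to −1.61 in the control and −2.09 to −1.40 in the 4E-BP1–cKO library. With the early-response share, 1 gene was higher among ribosome-poor cells (Kcnk6), where Kcnk13 was again lower, and among the other cells Kcnk6 was lower in place of Kcnk13, so that Kcnk6 lay past 1.5-fold in opposite directions in these states (log2 ratios of 0.68 and 1.13 against −0.72 and −0.76, control first). The cause was not tested. All ribosome-poor cells together held 87 control and 31 4E-BP1–cKO UMIs of Kcnk6, so counting error was not excluded. The share of all genes past 1.5-fold is not given for the other ribosomal limits or for tertiles within a state. Clic1 in ribosome-poor cells and Kcnk13 with the early-response share, the members' differences past 1.5-fold in both libraries, kept their direction. Thinning lowered all 20 shares of cells with a UMI, as fewer UMIs must. Of 88 log2 ratios between the libraries, 4 left the counting interval of the reported value. So did 3 of 64 for ribosome-poor over other cells, 15 of 64 for the early-response share, all of the latter with tertiles taken within a state, and 2 of 41 ratios of the highest to the lowest cluster. No paired analysis was possible because each genotype has 1 library. Depth limits the 4E-BP1–cKO library most, with 4 UMIs each for Kcnn4 and Kcna3.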

Other observations

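Kcnk12 and Kcnk7, other tandem pore-domain potassium channel genes, had lower levels in the 4E-BP1–cKO library. Both were chosen after their values were seen. Kcnk12, the closest relative of Kcnk13, whose product is known to assemble with that of Kcnk13, had 137 UMIs in the control and 32 in the 4E-BP1–cKO library, or 28.5 and 18.5 CPM, with a ratio of 0.647 (0.426 to 0.956). Kcnk7 had 35 control UMIs and 0 4E-BP1–cKO UMIs. At the control level 12.6 UMIs would stand in the 4E-BP1–cKO library. Against a floor of 3 counts in that library the control level was 4.21-fold higher, without counting error. The interval of the cKO-to-control ratio reached up to 0.308. The 35 UMIs came from 33 control cells, none with more than 2, and 25 of them lay in ribosome-poor cells. Of 9601 genes with at least as many control UMIs, 7 had 0 in the 4E-BP1–cKO library. The span of Kcnk7 overlaps that of Ehbp1l1 by 616 bases, and reads there may have been assigned to either gene. With 1 library per genotype there is no replicate check of these values.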
